A study of Mus musculus with 8 samples.

Results

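The genes described here are 9 regulators of cell metabolism from the MYC network (Myc, Mycn, Mycl, Max and Mxd1) and the hypoxia pathway (Hif1a, Epas1, Arnt and Vhl). They were chosen by name, and the data are the H3K27ac intervals that overlap each gene or the 50 kb on either side of it. These windows held 74 of the 81522 distinct intervals of the DMSO list and 219 of the 253423 of the EnPGC-1 list. The 9 genes are part of 21631 protein-coding genes on the 20 chromosomes in both lists. ChIP-seq measured H3K27ac, a histone acetylation typical of active promoters and enhancers, in CD8+ T cells taken from lymph node and spleen of C57BL/6 mice. Antibodies to CD3 and CD28 stimulated all of the cells, which then spent 48 h with PIPs EnPGC-1 or with the vehicle DMSO. Each treatment had 2 H3K27ac samples and 1 deposited peak list, so replicate spread is unknown and the treatments were compared without a test. Values from these lists are given below as under DMSO and under EnPGC-1. Whether the replicates came from separate animals or cultures, and whether a list pools them, is not given in the sources used here.

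MYC proteins are transcription factors that bind DNA as a pair with MAX and raise the expression of genes for growth, nucleotide synthesis, glycolysis and glutamine use. MXD1 also pairs with MAX and works against MYC at the same DNA sites. HIF-1 alpha and HIF-2 alpha, encoded by Hif1a and Epas1, pair with ARNT and turn on glycolytic and angiogenic genes when oxygen is low, and VHL is the ubiquitin ligase subunit that marks them for destruction when oxygen is present. T cells use MYC and HIF-1 alpha to switch to glycolysis after they are stimulated.

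The promoter sequences of 4 members are shown as examples where the lists differed or that hold the DNA words these proteins are known to bind. Mxd1 and Arnt also held such a word and are not shown. Sequences and start sites are from RefSeq, build GRCm38.p6 (mm10 coordinates), and 7 members matched an entry. For Myc and Epas1 both gene ends were used in place of a start. Capitals mark CACGTG, the E-box bound by MYC and MAX, and ACGTG or GCGTG, the core of the hypoxia response element, on either strand. ACGTG lies inside CACGTG, so 1 E-box counts for both words. The lines for Hif1a, Mycn and Mycl give the 250 bases before the start at chr12:73907617-73907866 (plus strand), chr12:12941837-12942086 (minus strand) and chr4:122995681-122995930 (plus strand). The line for Max runs from 100 bases before the start to 3 bases after it, at chr12:76962246-76962348 (minus strand).
Hif1a: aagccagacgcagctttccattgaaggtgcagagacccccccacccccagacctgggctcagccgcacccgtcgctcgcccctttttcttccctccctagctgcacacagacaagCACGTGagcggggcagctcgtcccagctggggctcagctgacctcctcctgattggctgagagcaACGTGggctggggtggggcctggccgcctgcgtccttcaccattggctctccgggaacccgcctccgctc
Mycn: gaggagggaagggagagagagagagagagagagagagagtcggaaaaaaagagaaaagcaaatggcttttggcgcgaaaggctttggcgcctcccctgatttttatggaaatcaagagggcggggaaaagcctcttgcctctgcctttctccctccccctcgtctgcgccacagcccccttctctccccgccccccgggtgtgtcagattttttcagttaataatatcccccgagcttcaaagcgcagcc
Mycl: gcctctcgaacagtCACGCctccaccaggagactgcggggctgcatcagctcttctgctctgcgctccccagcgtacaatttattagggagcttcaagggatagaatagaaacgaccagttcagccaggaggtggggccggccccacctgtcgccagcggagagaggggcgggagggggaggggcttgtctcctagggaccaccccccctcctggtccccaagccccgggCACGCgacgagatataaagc
Max: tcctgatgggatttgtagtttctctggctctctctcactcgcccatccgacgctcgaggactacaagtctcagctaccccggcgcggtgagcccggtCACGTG

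The Hif1a promoter held 1 E-box, beginning 135 bases before the start, and a further ACGTG that began 70 bases before it. Intervals of both lists covered the E-box, and the second word lay in the DMSO interval and outside the EnPGC-1 interval. The Mycn promoter held none of the 3 words in the 300 bases searched, from 250 before to 50 after the start. These bases were covered over 208 of 300 under DMSO and over all 300 under EnPGC-1. The Mycl promoter held GCGTG at 2 places on the minus strand, and its 300 bases were covered in full by an EnPGC-1 interval and over 0 bases by the DMSO list. At Max an E-box spanned the start itself, and neither list covered any of the 300 bases. The same bases of Mxd1, Arnt and Vhl were likewise covered by neither list. Among the 7 member promoters, 2 held CACGTG, 2 held ACGTG and 4 held GCGTG. Those with GCGTG were Mycl, Max, Mxd1 and Arnt. At Max it began 19 and 23 bases after the start, beyond the line shown. Of all 32851 promoters of this length in the table, 7.15% held CACGTG, 19.6% ACGTG and 32.4% GCGTG. Over the 21045 promoters of protein-coding genes the shares were 7.91%, 21.1% and 38.8%. A match of letters is a description and not a measured binding site.

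Every one of the 9 windows was covered over more bases in the EnPGC-1 list than in the DMSO list, which was also true of 99.3% of protein-coding genes with any covered base. Pooled, the windows span 1.16 Mb, of which the DMSO list covered 3.41% and the EnPGC-1 list 12.3%. The ratio of intervals was 2.96 (95% exact binomial interval 2.26 to 3.91, counting error only), beside 3.11 for the whole lists. The ratio of covered bases was 3.61, beside 4.00 for the whole lists. The MYC and HIF windows therefore showed no larger excess than the lists as a whole. With equal numbers of highest-scoring intervals from each list, taking tied scores from the widest interval down, the ratio of intervals was 0.878 and that of covered bases 1.31. The limit fell among 17339 EnPGC-1 intervals that share a score of 4.21, of which 2815 were kept. With all of these ties kept the ratios were 1.03 and 1.46, and with all dropped 0.824 and 1.20, so whether the ratio of intervals lay above or below 1 depended on the ties. The read depth behind each list is unknown, and a list's number and width of intervals depend on depth and on the calling threshold.

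**Figure D1:**
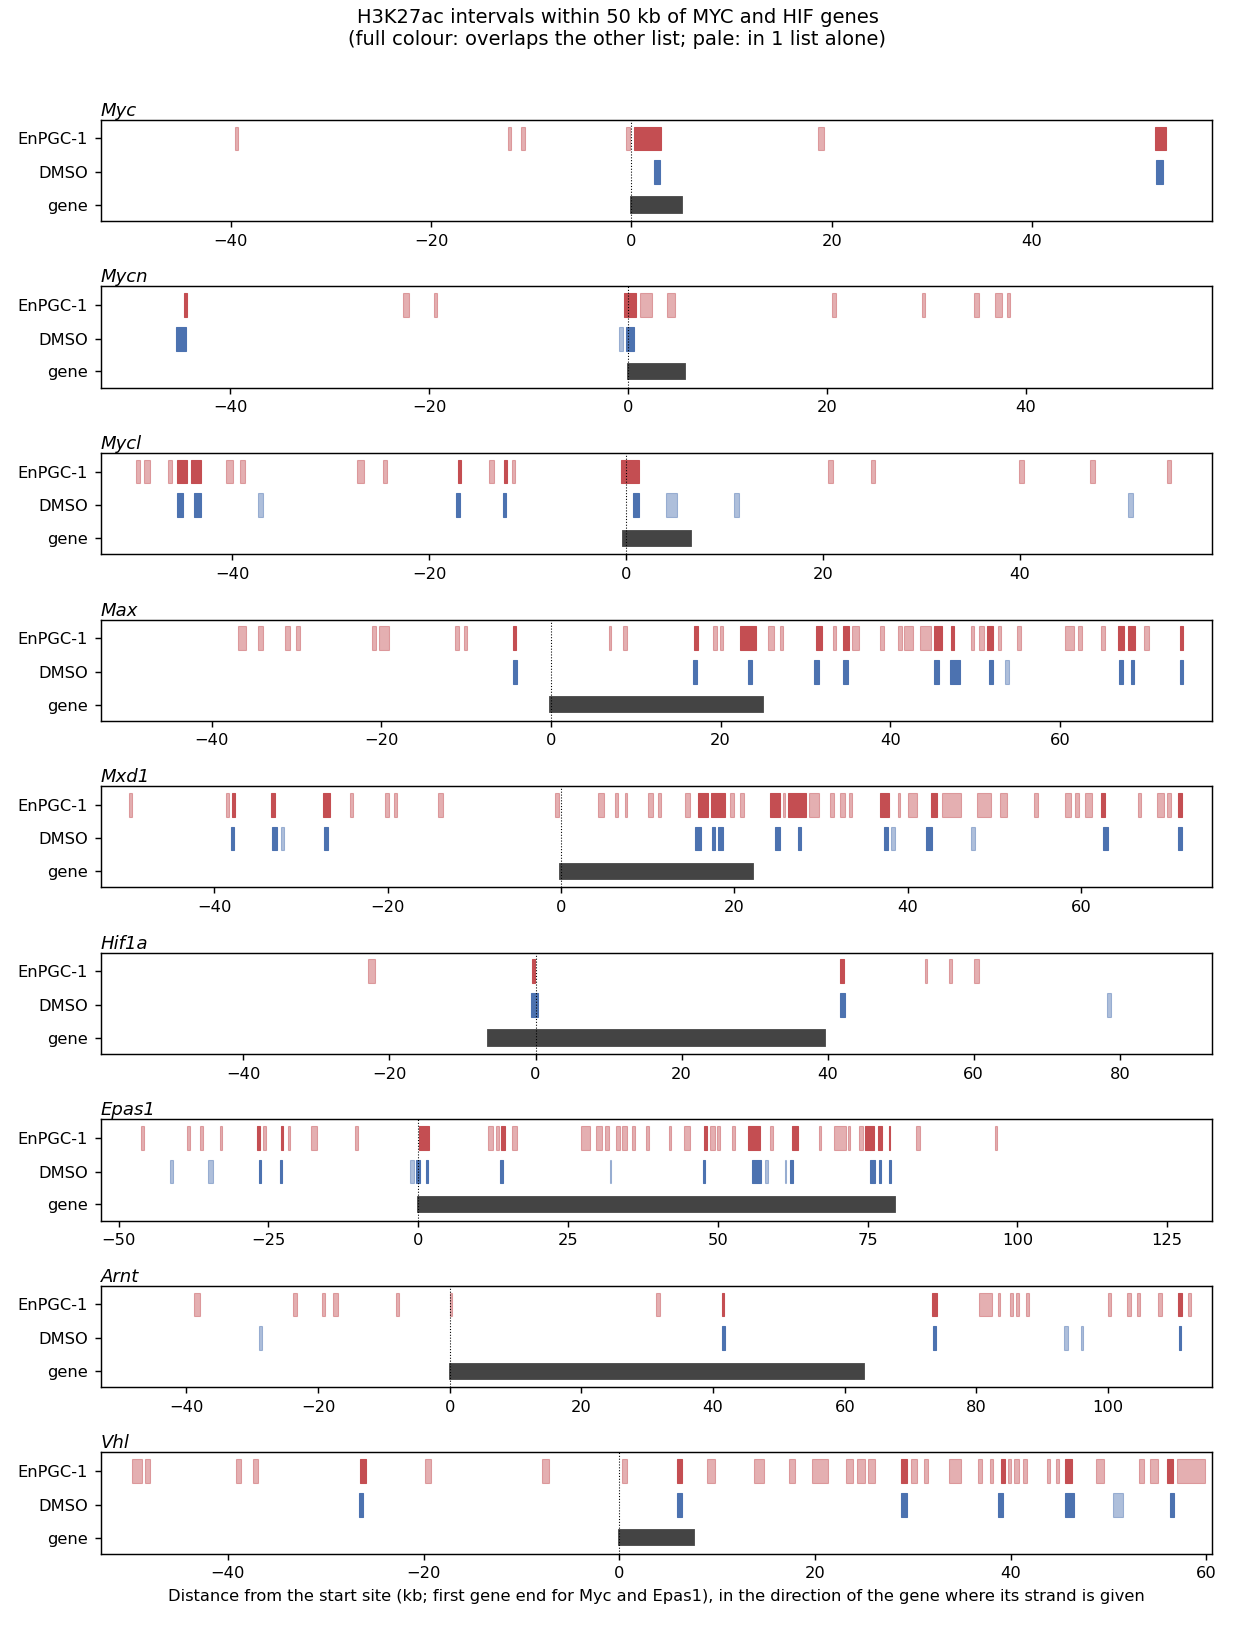
H3K27ac intervals of the DMSO list (blue) and the EnPGC-1 list (red) in the windows of the 9 genes, plotted by distance in kb from the start site (for Myc and Epas1, from the gene end with the lower coordinate); grey bars are the genes, full colour marks intervals that overlap the other list and pale colour those that do not. Hif1a has 6 EnPGC-1 intervals and Myc 7, while Mxd1 has 43 and Epas1 40.

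Among the MYC family genes, Myc had a sparse window in which the gene itself held 2677 of the 5718 bases covered under EnPGC-1. Myc lies at chr15:61985341-61990361, and its window held 2 DMSO intervals and 7 EnPGC-1 intervals. They covered 1.21% and 5.44% of the window, a ratio of 4.51. In the DMSO list a single interval of 593 bp lay inside the gene (chr15:61987637-61988229, score 2.54). Scores are the authors' own, taken here as −log10 q from the peak caller, and each belongs to 1 interval. In the EnPGC-1 list an interval of 2677 bp with 5 summits (chr15:61985627-61988303, score 3.18) contained that DMSO interval. It covered 53.3% of the gene, where the DMSO list covered 11.8%. A narrow EnPGC-1 interval of 325 bp lay 186 bases outside the lower gene end, and no DMSO interval lay within 1 kb of either end. Within 5 kb of that end the covered length was 593 bases under DMSO and 3002 under EnPGC-1, beside medians of 301 and 1111 over all protein-coding genes. Within 5 kb of the upper end it was 593 and 2677. The remaining shared site lay inside Pvt1, a long non-coding RNA gene next to Myc, where the DMSO interval measured 674 bp and the EnPGC-1 interval 1164 bp. Under EnPGC-1 the top score in the window belonged to a 293-bp interval (score 5.87), which lay outside genes and overlapped no DMSO interval.

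Mycn, the family member known from neural and embryonic tissue, was covered at its start in both lists. Mycn lies at chr12:12936093-12941836, and its window held 3 DMSO and 11 EnPGC-1 intervals, covering 2.12% and 6.34%. At the start a DMSO interval of 741 bp (score 2.16) overlapped an EnPGC-1 interval of 1134 bp with 4 summits (score 5.12). A further DMSO interval of 418 bp, 465 bases upstream, was found in the DMSO list alone. The EnPGC-1 list added intervals of 1299 bp and 771 bp inside the gene, so that 49.2% of the gene was covered, against 10.1% in the DMSO list. Within 5 kb of the start the covered length was 1159 bases under DMSO and 3204 under EnPGC-1. Myc and Mycn thus shared an EnPGC-1 coverage of about the same share of a short gene, in windows that were otherwise below the median of 8.44% for that list.

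Mycl, which encodes L-MYC, was covered at its start in the EnPGC-1 list, and the DMSO list had an interval within 1 kb that did not reach the start. Its window around chr4:122995588-123002490 held 9 DMSO and 19 EnPGC-1 intervals, covering 4.90% and 10.7%. That ratio of 2.18 stood at percentile 6.44 of the protein-coding genes. A DMSO interval of 605 bp began 740 bases after the start, and an EnPGC-1 interval of 1831 bp with 4 summits spanned both this site and the start. In the downstream part of the gene the order was the other way round: a DMSO interval of 1027 bp (chr4:123000045-123001071, score 3.03) overlapped no EnPGC-1 interval. The gene body was therefore covered about equally, over 23.6% under DMSO and 24.6% under EnPGC-1. The neighbouring gene Mfsd2a, which encodes a lipid transporter, held the DMSO interval with the highest score of the window (516 bp, score 4.52), which was in the DMSO list alone. With a flank of 10 kb the DMSO list covered more of the Mycl region than the EnPGC-1 list, 8.10% against 6.81%.

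Max, the common partner of the MYC and MXD proteins, was the 1 member with no interval within 1 kb of its start in either list. Max lies at chr12:76937269-76962323, and the nearest intervals were 4048 bases from the start under DMSO and 4141 under EnPGC-1. Within 5 kb of the start the lists covered 409 and 346 bases, a single shared upstream site. The window as a whole was well covered, with 12 DMSO intervals (5.09% of it) and 39 EnPGC-1 intervals (19.8%). Of the 12 DMSO intervals, 11 had a partner in the EnPGC-1 list, and 7 lay in other genes. All 7 were in Fntb, which encodes a farnesyltransferase subunit and ends within the window. Inside Max the widest EnPGC-1 interval measured 1906 bp with 3 summits (chr12:76938099-76940004, score 5.87), near the 3' end of the gene, over a DMSO interval of 439 bp.

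Mxd1, the MYC antagonist, had the most EnPGC-1 intervals of the 9 windows and no DMSO interval near its start. Mxd1 lies at chr6:86647044-86669234, and its window held 15 DMSO and 43 EnPGC-1 intervals, covering 5.85% and 23.9%. These shares stood at percentiles 78.0 and 79.9 of protein-coding genes. The DMSO list covered 0 bases within 5 kb of the start, and its nearest interval was 15456 bases away. In the EnPGC-1 list an interval of 417 bp (chr6:86669446-86669862, score 4.25) lay 287 bases upstream of the start, and 1044 bases were covered within 5 kb. The median over all protein-coding genes was 1111 in that list. The 3 highest-scoring EnPGC-1 intervals of the window, with scores of 9.82, 9.06 and 7.68, overlapped no DMSO interval. The highest of them was a 375-bp interval within the gene, 11127 bases from the start, at percentile 99.57 of the scores of its list. The 3 DMSO intervals of the gene lay together, 15456, 17410 and 18139 bases downstream of the start, and all 3 overlapped EnPGC-1 intervals.

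**Figure D2:**
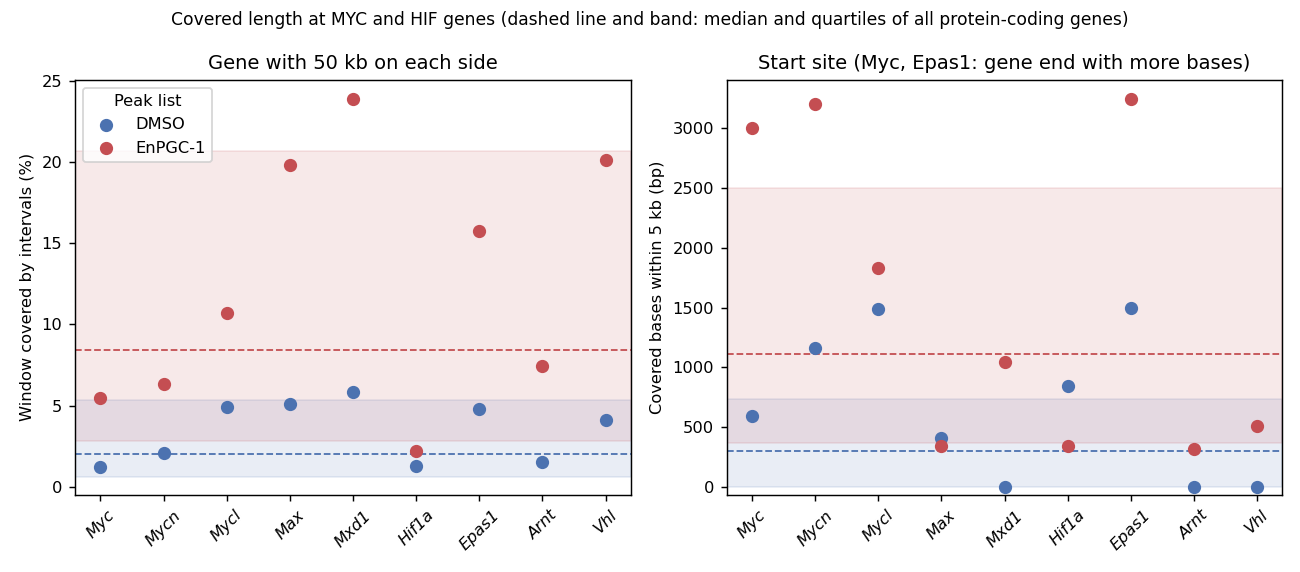
Left, percent of each window covered by intervals, and right, covered bases within 5 kb of the start (for Myc and Epas1, of the gene end with more covered bases), in the DMSO list (blue) and the EnPGC-1 list (red); dashed lines and bands are the medians and quartiles of all protein-coding genes. All 9 red points lie above their blue points on the left, whereas on the right Hif1a (841 and 343 bases) and Max (409 and 346 bases) have more bases in the DMSO list. Epas1 is plotted at its upper end. At its lower end, not plotted, the DMSO list also covered more (1644 and 1535 bases).

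Of the hypoxia genes, Hif1a had few intervals, and a shorter interval at its start in the EnPGC-1 list. Hif1a lies at chr12:73901324-73947554, and its window held 3 DMSO and 6 EnPGC-1 intervals, covering 1.29% and 2.18%. The start used, at base 73907867, lies inside the gene as given. Within 5 kb of the lower gene end both lists covered 0 bases. The ratio of covered bases, 1.68, stood at percentile 2.92 of protein-coding genes and was the lowest of the 9. The DMSO interval at the start measured 841 bp (chr12:73907300-73908140, score 2.58) and spanned the start site. The EnPGC-1 interval there measured 343 bp (chr12:73907417-73907759, score 2.31) and ended 108 bases before the start. These were the sole intervals in the gene in either list, so 1.82% of it was covered under DMSO and 0.742% under EnPGC-1. Outside the gene, both lists held an interval at 1 common place just beyond the 3' end, of 601 bp and 461 bp, in the long non-coding RNA gene Gm15283. The EnPGC-1 list also held an interval of 982 bp (score 4.75) 21921 bases before the start, which overlapped no DMSO interval. With a flank of 10 kb the lists held 2 intervals each, and the DMSO list covered 2.18% against 1.21%.

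Epas1, which encodes HIF-2 alpha and is best known from endothelial cells, was covered along much of its length in the EnPGC-1 list. Epas1 lies at chr17:86753864-86833410 and is the longest of the 9 genes at 79547 bp. Its window held 17 DMSO and 40 EnPGC-1 intervals, covering 4.77% and 15.7%. Inside the gene the EnPGC-1 list covered 22546 bases, 28.3% of it, and the DMSO list 5711 bases, or 7.18%. Outside the gene the covered bases were 5707 and 2859. The excess of the EnPGC-1 list at Epas1 thus lay mostly within the gene. The gene ends differed: within 5 kb of the upper end 1497 bases were covered under DMSO and 3245 under EnPGC-1, and within 5 kb of the lower end 1644 and 1535. Which end holds the start is not given in the sources used here. At the lower end a DMSO interval of 710 bp at that end (score 1.76) and one of 302 bp just inside the gene met an EnPGC-1 interval of 1535 bp with 3 summits (score 6.45), the highest score of the window in that list. A DMSO interval of 632 bp outside that end was in the DMSO list alone. The DMSO interval with the highest score of all 9 windows lay inside Epas1 (chr17:86809643-86811027, 1385 bp, score 7.35), at percentile 99.75 of its list, and an EnPGC-1 interval of 2018 bp with 4 summits overlapped it.

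Arnt and Vhl, the partner and the destroyer of the HIF alpha proteins, each had an interval within 1 kb of the start in the EnPGC-1 list alone. Arnt lies at chr3:95434367-95497240, and its window held 6 DMSO and 20 EnPGC-1 intervals, covering 1.51% and 7.46%. The nearest DMSO interval was 28578 bases from the start. In the EnPGC-1 list an interval of 313 bp (chr3:95434456-95434768) began 66 bases after the start, and its score of 6.11 was the highest of the window in that list. It was also the sole EnPGC-1 interval within 5 kb of the Arnt start, where the median over all protein-coding genes was 1111 covered bases. The gene body was little covered in either list, over 0.743% and 2.13%.

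Vhl lies at chr6:113623994-113631634, and its window held 7 DMSO and 34 EnPGC-1 intervals, the highest interval ratio of the 9 at 4.86 (2.12 to 13.0). They covered 4.12% and 20.1% of the window. Most of this lay in other genes, with 6 of the DMSO and 31 of the EnPGC-1 intervals there. At the start the DMSO list covered 0 bases within 5 kb, and the EnPGC-1 list held 1 interval of 512 bp (chr6:113624329-113624840, score 3.31), 335 bases downstream. That length was below the EnPGC-1 median of 1111 bases over all protein-coding genes. A shared site of 487 bp in the DMSO list lay in the gene toward its 3' end. The widest EnPGC-1 interval of all 9 windows, 2855 bp with 6 summits and a score of 9.82, lay in Irak2, a kinase gene of interleukin-1 receptor signalling, across the window's edge. It overlapped no DMSO interval.

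**Figure D3:**
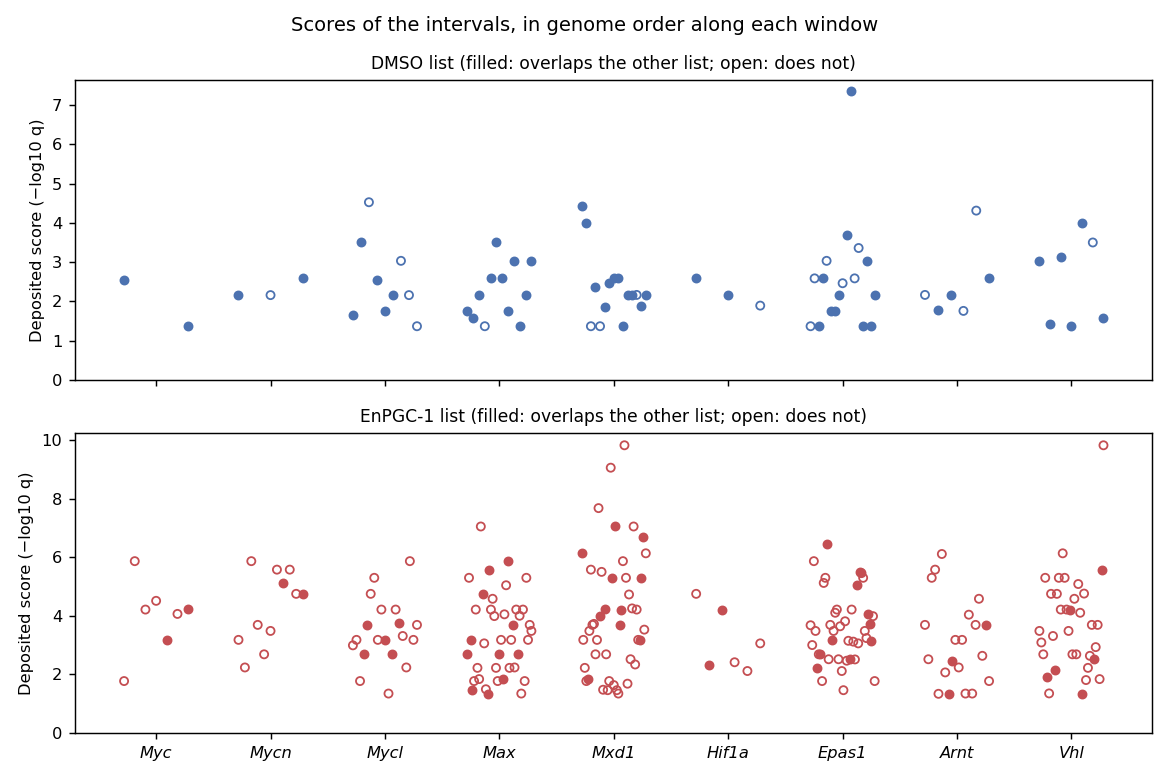
Deposited score (−log10 q) of each interval in the 9 windows, DMSO list above and EnPGC-1 list below, in genome order within each gene; filled points overlap an interval of the other list and open points do not. The highest DMSO score is 7.35 at Epas1, and the highest EnPGC-1 score is 9.82 at both Mxd1 and Vhl; scores are not compared between the lists.

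Counted by start sites, 3 of the 7 members with an annotated start had an interval within 1 kb in the DMSO list (Mycn, Mycl and Hif1a), beside 33.5% of such protein-coding genes. In the EnPGC-1 list there were 6 of 7, beside 67.3%. Mxd1, Arnt and Vhl had this mark under EnPGC-1 and not under DMSO, beside 36.8% of genes, and 0 of 7 the reverse, beside 3.09%. By either gene end, Myc was marked in the EnPGC-1 list alone, beside 32.3% of genes without an annotated start, and Epas1 in both, beside 40.6%. Among those genes, 43.1% were marked under DMSO and 73.0% under EnPGC-1. With all 9 genes together, 4 were marked under DMSO and 8 under EnPGC-1, beside 35.5% and 68.4% of all protein-coding genes. The EnPGC-1 count was 5 with equal numbers of intervals (Myc, Mycn, Mxd1, Epas1 and Arnt), where 32.4% of all genes were marked. In that setting Mycl and Hif1a were marked in the DMSO list alone (17.9% of all genes) and Myc, Mxd1 and Arnt in the EnPGC-1 list alone (14.9%).

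Ratios of covered bases over the windows ran from 1.68 at Hif1a through 2.18 at Mycl, 3.00 at Mycn, 3.30 at Epas1, 3.90 at Max, 4.09 at Mxd1 and 4.51 at Myc to 4.88 at Vhl and 4.93 at Arnt. A ratio of at least 4 was found at 4 of 9 members, beside 50.9% of protein-coding genes, and a ratio of at least 8 at 0 of 9, beside 14.9%. No member had a ratio below 1, which 0.745% of genes had. No counting interval was computed for these ratios of covered bases. For the ratios of interval numbers, a different measure, the exact intervals of the 9 members all overlapped. Counting error therefore leaves the order by interval numbers uncertain. The ratio of interval numbers was 2.00 (0.427 to 12.4) at Hif1a and 3.33 (1.29 to 10.1) at Arnt. With equal numbers of intervals, 6 of 9 windows were still covered further under EnPGC-1, beside 78.7% of genes. The 3 with more in the DMSO list, as 21.2% of genes had, were Mycl, Hif1a and Arnt.

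Of the DMSO intervals in the windows, 54 of 74 shared 1 bp or more with an EnPGC-1 interval (73.0%, exact Clopper-Pearson interval at 95% 61.4 to 82.6), beside 73.7% of the whole list. Of the EnPGC-1 intervals, 52 of 219 overlapped a DMSO interval (23.7%, 18.3 to 29.9), beside 23.1%. The 20 DMSO intervals without a partner were spread over every window except that of Myc, with the most, 6, at Epas1 and 4 at Mycl. EnPGC-1 intervals in the windows had a median width of 521 bp and DMSO intervals of 455 bp, beside 499 and 431 bp in the whole lists. More than 1 summit was listed for 44 of 219 EnPGC-1 and 2 of 74 DMSO intervals, beside 20.7% and 3.42% of the whole lists. Of the EnPGC-1 intervals, 10 lay at a start or end of the member, 47 elsewhere in the member gene, 99 in other genes and 63 outside genes. The DMSO numbers were 7, 19, 31 and 17.

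Windows with the most protein-coding neighbours, Mxd1 and Vhl with 4 each, had the highest EnPGC-1 coverage. Max, with 1 such neighbour, had 19.8%, close to the 20.1% of Vhl. Myc, Mycn and Epas1 had 0 such neighbours, at 5.44%, 6.34% and 15.7%. Arnt had 3 at a coverage of 7.46%, so the order was not followed throughout. Several neighbours were themselves marked at the start within a member's window. Trit1 beside Mycl, Asprv1 beside Mxd1, Snapc1 beside Hif1a, and Brk1 and Irak2 beside Vhl had such a mark under EnPGC-1 and none under DMSO. Of all protein-coding genes with an annotated start, 36.8% had this pattern. Fancd2, a DNA repair gene beside Vhl, was marked in both lists by a gene end, beside 40.6% of genes without an annotated start. Ctss, a cathepsin gene beside Arnt, was marked in the DMSO list alone, beside 3.09% of genes with a start. Mfsd2a, Gm46963, Snrnp27, 4930558C23Rik, Ctsk and Fancd2os, which also start within a window, were marked in neither list. An interval in such a window cannot be assigned to the member from its position.

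Other genes of the MYC and HIF pathways were counted in the same way, beside 35.5% of all genes marked under DMSO and 68.4% under EnPGC-1. Of 13 further genes of the MYC network, 6 were marked under DMSO and 12 under EnPGC-1. Mlxipl, which encodes the glucose sensor ChREBP, had 873 covered bases within 5 kb of its start under DMSO and 4801 under EnPGC-1, and the MAX partner gene Mxd4 had 2384 and 6086. Mycbp2, a ubiquitin ligase gene, had 493 bases under DMSO and 0 under EnPGC-1. Of 13 further HIF pathway genes, 4 were marked under DMSO and 10 under EnPGC-1. Of these 13, 2 were marked in both lists, 8 under EnPGC-1 alone and 2 under DMSO alone. Over all 21631 genes the numbers were 7031, 7768 and 639. The prolyl hydroxylase genes Egln2 and Egln1, whose products mark HIF alpha for VHL, were covered over 1154 and 472 bases under DMSO and over 5503 and 3071 under EnPGC-1. Arnt2, an ARNT paralogue, had 334 and 0.

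Among known targets the counts were 12 of 21 HIF targets under DMSO and 17 under EnPGC-1, and 12 and 18 of 22 MYC targets. Of all protein-coding genes, 35.5% were marked under DMSO and 68.4% under EnPGC-1. An annotated start was known for 19 of the 21 and 13 of the 22, and the others were judged by either end. Of all genes without an annotated start, 43.1% and 73.0% were marked. The peptide hormone gene Adm had 676 covered bases under DMSO and 4920 under EnPGC-1, and the angiogenic factor gene Vegfa had 1638 and 4875. The glycolytic gene Eno1 had more in the DMSO list, 2335 against 1647. Bop1, a gene of ribosome assembly, had 1395 and 5998, and the mitochondrial serine enzyme gene Shmt2 had 1600 and 6141. Ncl, which encodes nucleolin, had 769 and 382. Median differences within 5 kb were 1156 bases for the MYC network, 612 for the HIF pathway, 918 for HIF targets and 935.5 for MYC targets, beside 512 for the 9 members and 779 over all protein-coding genes. For a gene without an annotated start, the gene end with more covered bases in both lists together was used, for Epas1 its upper end.

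**Figure D4:**
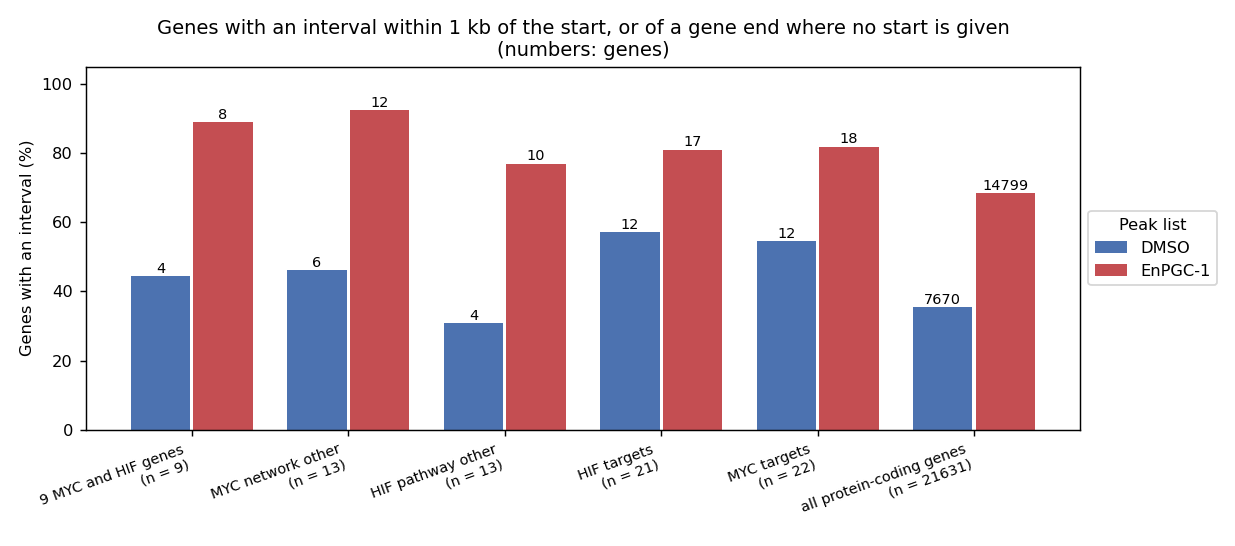
Percent of genes with an interval within 1 kb of the start (of either gene end where no start is given) in the DMSO list (blue) and the EnPGC-1 list (red) for the 9 members, 4 further lists and all protein-coding genes, with the number of genes over each bar. In each of the 6 groups the EnPGC-1 bar is the higher, at 8 against 4 of the 9 members and 14799 against 7670 of 21631 genes.

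The labelled cell type was looked for in the same lists. Of 10 genes of T cells and their receptor, 5 were marked under DMSO and 7 under EnPGC-1, beside 35.5% and 68.4% of all protein-coding genes. Ptprc, which encodes the leukocyte antigen CD45, and the receptor chain gene Cd3d were marked in neither list. B cell markers were marked at 2 and 4 of 5 genes, myeloid markers at 2 and 3 of 5, and CD4, Treg and NK markers at 1 and 1 of 4. The part of other cells in the MYC and HIF windows was not tested.

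The gene nearest to each member over 4 values (percent of the window covered and covered bases within 5 kb, in each list, each divided by its SD over 21631 genes) was named as a description. It was Mest for Myc (distance 0.0614), Plpp4 for Mycn (0.15), Adprh for Mycl (0.255), Gm960 for Max (0.0742) and Rps7 for Mxd1 (0.0507). For the hypoxia genes it was Slc24a3 for Hif1a (0.0854), Rom1 for Epas1 (0.218), Mon2 for Arnt (0.0275) and Dhrs4 for Vhl (0.0591). Mycl and Epas1 had the largest of these distances.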

How the data were processed

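The authors deposited 1 peak list per treatment, without header or per-sample values. Per the submitters' processing notes, Trimmomatic 0.38, Bowtie 1.1.2, Picard 0.118, MACS2 2.2.2.20160309, ChIPseeker 11.16.1 and build mm10 were used; for parameters, control and pooling, nothing is stated in these sources. The score the authors deposited was read as a −log10 q-value, because its lowest value (1.31) lies just above −log10 of 0.05 (1.30). Here, entries repeating 1 interval were combined, keeping the highest score. Samples were grouped by title. Gene ends came from a RefSeq table and starts from a RefSeq promoter table (GRCm38.p6); 4357 protein-coding genes without a start were judged by either end. Coordinates are 1-based. Python 3.11.15, numpy 2.4.6, pandas 2.3.3 and scipy 1.17.1 were used. Depth is unknown, and IgG and input samples were not analysed here. Interval and coverage routines differed from a direct count in 0 of 200 simulated sets each. Members and lists were chosen with earlier results of these data known. Named genes were the members, the genes nearest to them, neighbours in the windows, and per list the 2 largest and the most negative difference within 5 kb. Of each window's leading intervals the text gives some. Pvt1, Gm15283, Fntb, Cd247, Cd4 and Foxp3 were named after their values were seen. Alternatives were score, number, width, joining, flank, overlap and start-window settings.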

Additional observations from a re-analysis of the deposited data

How the results depend on the processing

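No paired analysis was possible because each treatment has 1 deposited list and no per-sample columns. The EnPGC-1 over DMSO ratio of interval numbers, 2.96, became 0.878 with equal numbers of highest-scoring intervals and 2.15 with intervals joined within 1000 bp, and stayed within its counting interval in the 6 other planned settings. The ratio of covered bases, 3.61, became 3.13 at or above each list's median score, 1.31 with equal numbers, 4.62 for intervals of at least 500 bp, 4.30 after joining, 3.15 and 3.85 with flanks of 10 and 100 kb, and 3.51 without Mxd1. The share of DMSO intervals with a partner, 73.0%, became 39.5% with scores from the median up, 24.3% with equal numbers and 54.8% for at least 500 bp. The EnPGC-1 share, 23.7%, became 16.2% at or above the median score, 14.0% for at least 500 bp, 33.1% after joining and 31.6% with a 10 kb flank. Members marked in the EnPGC-1 list numbered 5 in place of 8 with equal numbers and for at least 500 bp, and those marked in the DMSO list 2 in place of 4 by either gene end. The difference in percent of the window covered turned to -3.40 at Mycl, -0.623 at Hif1a and -0.257 at Arnt with equal numbers, and to -1.29 at Mycl and -0.963 at Hif1a with a 10 kb flank. Equal numbers drop no DMSO interval, and they drop EnPGC-1 intervals scoring below 4.21 and the narrower ones tied at that score. Chosen after seeing the data, keeping all ties gave ratios of 1.03 for intervals and 1.46 for bases, a DMSO share of 27.03%, 5 marked members under EnPGC-1, and differences of -2.75 at Mycl, -0.308 at Hif1a and -0.257 at Arnt. Dropping all ties gave 0.824, 1.20, 23.0%, 5 members, and -3.40, -0.623 and -0.257. The cause of these differences was not tested.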
